A study of Mus musculus with 4 samples.

Results

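The 37 genes described here are markers of monocytes and macrophages, read in RNA from sorted tumour T cell samples. They were taken by symbol from the 4 deposited tables, and all 37 were found among the 14082 listed genes. Of these, 8 are core genes of the lineage, another 8 are typical of monocytes, 11 of resident-type macrophages and 10 of tumour macrophages. All 37 passed the filter on low counts that left 13358 genes for testing.

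Mice of 6 to 10 weeks bore subcutaneous E.G7 tumours, and CD8 T cells specific for ovalbumin were sorted from these by flow cytometry. E.G7 cells are EL4 cells, a mouse T lymphoma line, that were made to express ovalbumin. In the 2 libraries labelled WT the mice were Smad4-fl/fl, with both Smad4 alleles flanked by sites for Cre recombinase. In the 2 libraries labelled KO they were Cd8-cre Smad4-fl/fl, so the floxed alleles are common to both groups. The Cre is named for Cd8, a T cell gene, and the labels neither say which Cd8 element drives it nor whether a library came from 1 mouse or from a pool. The labels also do not say that replicates were separate animals, so p-values measure the spread between these libraries, which may be technical.

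Monocytes leave the blood for tumours, where they turn into macrophages under growth factors such as CSF-1. The ETS factor PU.1 and C/EBP factors set up the lineage. Young monocytes carry Ly6C, resident-type macrophages make complement C1q and scavenger receptors such as CD163, and tumour macrophages often make arginase 1, osteopontin and lipid-handling proteins. Macrophages also take up dying cells through the receptor kinases MerTK and Axl.

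Promoter sequences are shown for genes whose positions or changes are compared below. C1qb stands for the C1q genes, which lie beside each other and had like fold changes, Ms4a4c, Ms4a6c and Ms4a7 lie in 1 region of chromosome 19 and had unlike fold changes, and Mmp12 had the largest rise. Each run is the 250 bases before a RefSeq transcription start (GRCm38.p6), 5′ to 3′ on the gene's own strand. Capitals mark GGAAGT, the ETS core that PU.1 binds, or its reverse complement, and TGANTCA, the AP-1 motif.
C1qb, chr4:136886201-136886450, minus strand: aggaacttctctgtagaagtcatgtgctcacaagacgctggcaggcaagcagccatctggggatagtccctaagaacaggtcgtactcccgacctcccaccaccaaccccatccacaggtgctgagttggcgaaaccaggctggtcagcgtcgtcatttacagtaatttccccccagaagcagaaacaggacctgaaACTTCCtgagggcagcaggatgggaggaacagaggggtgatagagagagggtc
Ms4a4c, chr19:11407411-11407660, plus strand: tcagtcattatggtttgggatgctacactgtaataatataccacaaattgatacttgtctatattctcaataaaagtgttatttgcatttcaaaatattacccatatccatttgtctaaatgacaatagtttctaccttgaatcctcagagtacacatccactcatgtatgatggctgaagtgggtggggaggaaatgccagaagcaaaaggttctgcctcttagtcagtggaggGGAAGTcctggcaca
Ms4a6c, chr19:11469118-11469367, plus strand: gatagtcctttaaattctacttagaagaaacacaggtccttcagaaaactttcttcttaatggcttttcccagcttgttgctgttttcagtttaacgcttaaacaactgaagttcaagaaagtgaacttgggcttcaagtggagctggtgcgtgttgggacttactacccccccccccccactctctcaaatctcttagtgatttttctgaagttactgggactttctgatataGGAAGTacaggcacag
Ms4a7, first start, chr19:11336147-11336396, minus strand: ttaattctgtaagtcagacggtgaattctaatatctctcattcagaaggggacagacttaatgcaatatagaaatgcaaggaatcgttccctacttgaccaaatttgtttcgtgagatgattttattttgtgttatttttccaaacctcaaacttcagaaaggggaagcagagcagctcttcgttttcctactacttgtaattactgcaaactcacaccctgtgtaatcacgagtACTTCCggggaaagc
Ms4a7, second start, chr19:11334696-11334945, minus strand: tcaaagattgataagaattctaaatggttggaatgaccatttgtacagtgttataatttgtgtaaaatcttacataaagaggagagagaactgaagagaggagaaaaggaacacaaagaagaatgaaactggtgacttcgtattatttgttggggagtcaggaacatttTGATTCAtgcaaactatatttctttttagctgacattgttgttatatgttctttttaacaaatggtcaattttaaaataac
Mmp12, first start, chr9:7344147-7344396, plus strand: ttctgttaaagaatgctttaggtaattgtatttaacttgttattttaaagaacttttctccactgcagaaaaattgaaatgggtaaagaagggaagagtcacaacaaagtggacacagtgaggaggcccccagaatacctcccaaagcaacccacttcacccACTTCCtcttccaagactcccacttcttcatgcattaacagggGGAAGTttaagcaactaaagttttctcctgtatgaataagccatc
Mmp12, second start, chr9:7347124-7347373, plus strand: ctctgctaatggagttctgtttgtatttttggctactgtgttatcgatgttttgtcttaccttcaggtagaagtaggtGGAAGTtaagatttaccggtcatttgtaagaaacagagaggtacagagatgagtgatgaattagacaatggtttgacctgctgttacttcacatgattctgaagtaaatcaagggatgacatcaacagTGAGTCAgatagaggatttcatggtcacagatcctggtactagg

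The RefSeq table held 37 such windows for 28 of the 37 genes. GGAAGT, searched on both strands, was in 17 of those 37 windows, against 19.7% of the 32851 windows of all genes. It was in 1 copy in the C1qb, Ms4a4c and Ms4a6c windows and in 2 copies in the first Mmp12 window, and it was also in the windows of Lyz2 and C1qc. TGANTCA was in 5 member windows against 6.75% of all windows, among them the second Mmp12 window and the second Ms4a7 window. The C/EBP motif TTGCNNAA was in 5 member windows against 9.56% of all, and the interferon-stimulated response element in 2 against 2.98%. Searches covered both strands, matches of different motifs could overlap, and a match is a description of letters and no binding site. Both the falling Ms4a4c and the rising Ms4a7 had a GGAAGT match, so this match did not separate the directions.

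Summed counts ranged from 24366540 to 26218277 per library. Smad4, the floxed gene, had 752 and 736 counts in WT and 779 and 1088 counts in KO (log2 fold change 0.19, edgeR adjusted p = 0.397), so it was not lower there and directions below are between libraries as labelled. Gene-level counts include Smad4 exons that Cre does not remove and RNA of cells without Cre. Mitochondrial transcripts took 10.2% to 10.4% of counts in WT and 6.57% to 6.99% in KO. T cell markers were lower in KO, with 7 of 10 tested called lower and summed levels of 3190 to 3245 CPM (counts scaled to library size with TMM factors) in WT and 2197 to 2215 CPM in KO. Neutrophil markers were mostly higher, with 12 of 18 tested called higher and sums of 1283 to 1308 CPM in WT and 2823 to 2958 CPM in KO. Cxcl2 was the largest part of the WT sums (534 and 483 CPM), and S100a8 went from 149 and 158 to 641 and 647 CPM. The other 6 were not called, among them the scarce Ly6g (10 and 10 counts in WT, 9 and 19 in KO). Over all tested genes 10.1% were called higher and 11.0% lower. Dendritic cell markers summed to 14939 to 15723 CPM in WT and 14743 to 15400 CPM in KO, sums carried by Cd74 and MHC class II genes, and of 15 tested 4 were called higher and 3 lower. Sums of some scarcer markers were higher in KO: mast cell markers went from 71.1 and 75.5 to 149.7 and 129 CPM, erythroid markers from 28.6 and 35.7 to 88.5 and 56.1 CPM, and B cell markers from 13.5 and 13.9 to 29.4 and 23.9 CPM. The sum of the scarcest, NK cell markers, was lower, from 9.50 and 10.8 to 7.63 and 6.41 CPM. Most of that sum was Gzma (8.27 and 8.96 CPM in WT, 6.58 and 5.11 CPM in KO), which was not called (edgeR adjusted p = 0.0932). Of 4 NK cell markers tested, 1 was called lower. The T cell, neutrophil and dendritic markers that were listed had counts in every library. What part these shifts had in the changes described below was not tested.

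Macrophage genes stood among the most abundant transcripts of every library. The 37 genes took 3.04% and 3.15% of all counts in WT and 3.22% and 3.27% of all counts in KO. The 10 listed T cell markers took 0.310% and 0.315% in WT and 0.228% and 0.226% in KO. Those shares are of counts and are not corrected for gene length. The levels of single genes below are per length, from FPKM values that the authors deposited, within a library or as medians over the 4 libraries. Lyz2, which encodes the lysozyme of myeloid cells, ranked the fourth gene in both WT libraries and the third in both KO libraries, at 8617, 9054, 8516 and 9068 FPKM. It stood 69.1-fold and 75.1-fold above Cd8a in the WT libraries and 133-fold and 138-fold in the KO libraries. Csf1r, the receptor for CSF-1 and a defining gene of the lineage, was 1.37-fold and 1.47-fold above the CD3 chain gene Cd3e in WT and 2.42-fold and 2.32-fold in KO. Against the other CD3 chain genes Cd3d (171.5 to 200.1 FPKM) and Cd3g (118.9 to 193.6 FPKM), Csf1r was lower in every library (98.8 to 105.2 FPKM). The sort was for ovalbumin-specific CD8 cells, yet 14 of the 37 genes exceeded Cd8a in each WT library and 17 did so in each KO library. Against Cd8b1 the numbers were 12 in each WT library and 13 and 14 in KO. Cd8a itself was at 125 and 121 FPKM in WT and 63.8 and 65.8 FPKM in KO, so ratios to it rose while Lyz2 stayed level. In bulk RNA, fewer cells of a type and less RNA per cell cannot be told apart.

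**Figure D1:**
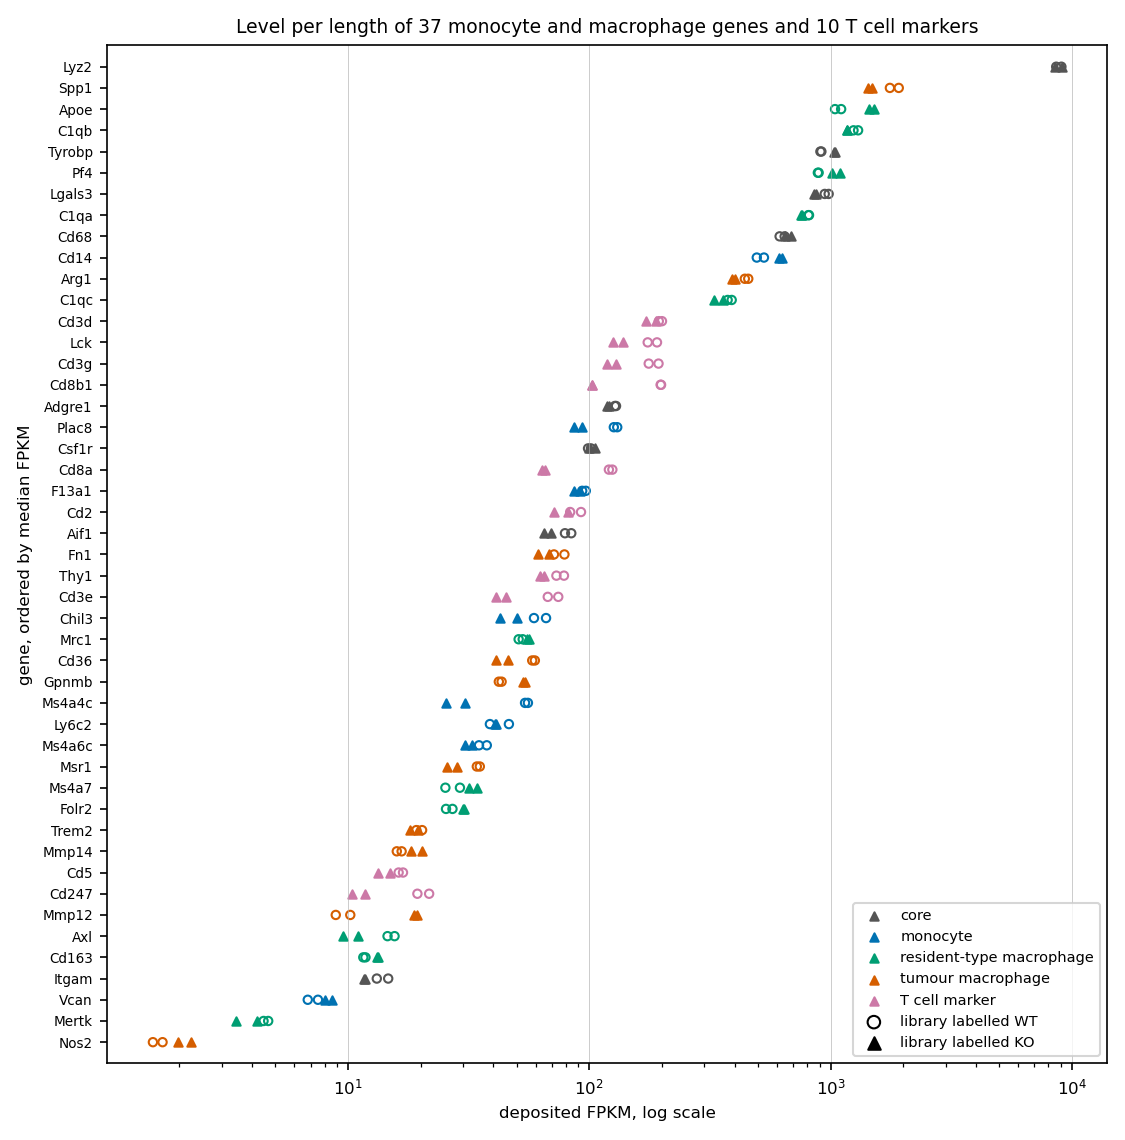
Deposited FPKM of the 37 genes and 10 T cell markers (x axis, log scale), with genes ordered by their median over the 4 libraries (y axis); circles are libraries labelled WT, triangles those labelled KO, and colours the lists. Lyz2 stands alone at the top, 12 macrophage genes lie above every T cell marker by median, and Mertk and Nos2 are lowest.

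By FPKM, 10 or 11 of the genes were among the 100 most abundant in each library. Spp1, Apoe, C1qb, Tyrobp, Pf4, Lgals3, C1qa and Cd68 followed Lyz2, with medians over the 4 libraries from 1624 FPKM for Spp1 to 646 FPKM for Cd68. At the other end were Mertk, an engulfment receptor gene, at a median of 4.34 FPKM, and Nos2, which encodes inducible nitric oxide synthase, at 1.84 FPKM. The median of all listed genes was 3.71 to 3.79 FPKM per library, and 35 or 36 of the 37 exceeded it. Arg1, which encodes arginase 1, stood at a median of 422 FPKM, so of the 2 enzymes that compete for arginine it was the more abundant one in every library.

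The comparison of libraries labelled KO with those labelled WT asks whether this macrophage signal differed in size or in kind. Of the 37 genes, 8 were called higher and 12 lower at an adjusted p under 0.05 (edgeR quasi-likelihood, Benjamini-Hochberg over all tested genes), while 21.2% of all tested genes were called, 10.1% higher and 11.0% lower. Among tested genes at least as abundant as the median member, 46.4% were called. Most changes were small. The median absolute log2 fold change was 0.224 for the 37 and 0.217 for all tested genes. Only 845 of the 13358 tested genes were at least as abundant as the median member, so these 2 medians are over sets of unlike abundance. Only Mmp12 and Ms4a4c moved by more than 1.5-fold, against 17.8% of all tested genes, a share that includes scarce genes. The median log2 fold change was -0.10, beside -0.0037 for all tested genes. The groups did not overlap for 32 of the 37, against 59.8% of tested genes. With library totals alone as the scaling 13 were called higher and 8 lower, and over all genes the share of higher calls moved from 47.9% to 67.5%. Without WT replicate 1 there were 4 higher and 8 lower, without WT replicate 2 there were 6 and 8, and without KO replicate 2 there were 5 and 11. When a library is left out, its group has 1 library, which is assumed to vary like the 2 of the other group.

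**Figure D2:**
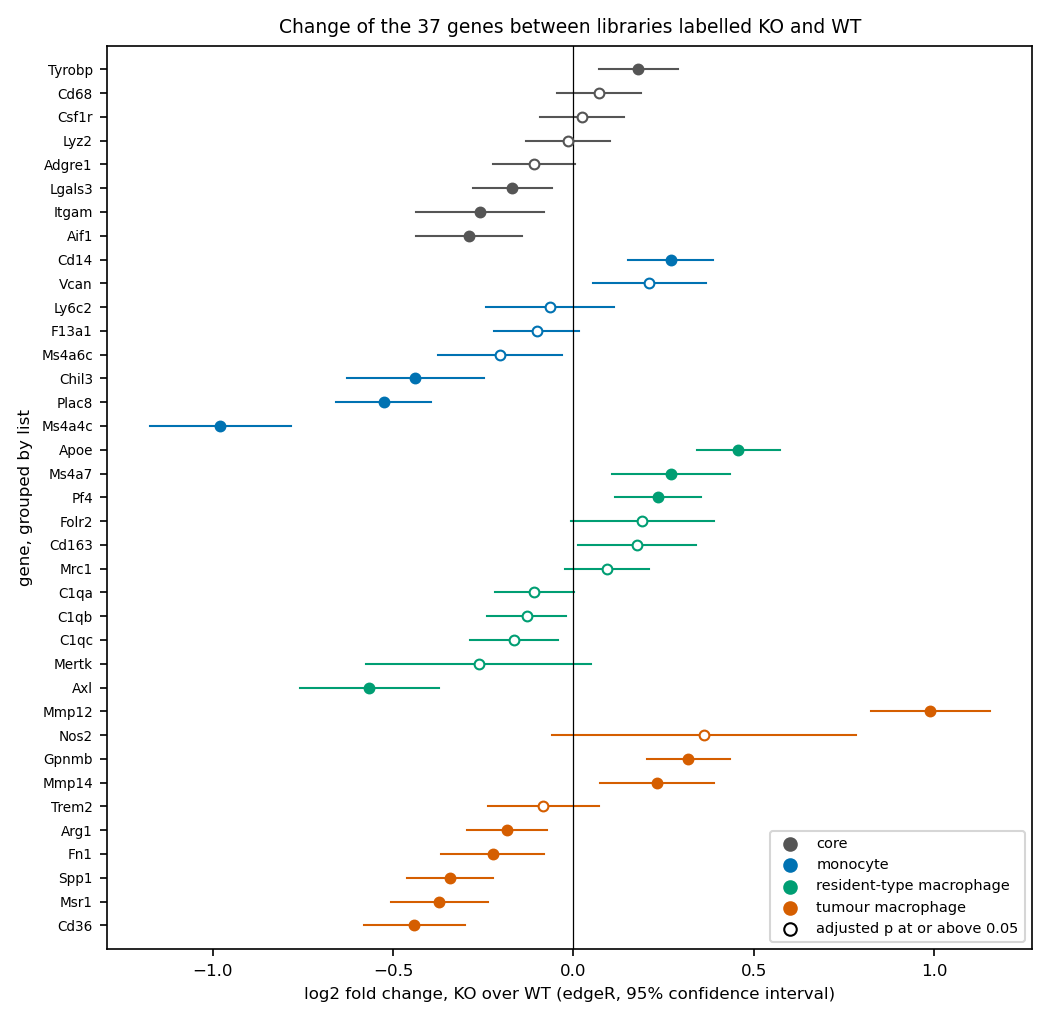
Log2 fold change of each gene, KO over WT (x axis, edgeR estimate with its 95% confidence interval), by list (y axis, colours); filled points passed an adjusted p of 0.05 and open points did not. The intervals of Mmp12 and Ms4a4c lie farthest from 0, and those of Lyz2, Cd68 and Csf1r cover 0.

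Of the 8 core genes 1 rose, 3 fell and 4 did not pass, and their mean log2 CPM was lower in both KO libraries by a small amount (difference -0.070). Lyz2 was at 11797 and 12357 CPM in WT and 11562 and 12346 CPM in KO, a log2 fold change of -0.015 (95% confidence interval -0.13 to 0.10, edgeR adjusted p = 0.886). Csf1r was at 610.3 and 592 CPM in WT and 594 and 628 CPM in KO, a log2 fold change of 0.024 with an interval of -0.092 to 0.14 (edgeR adjusted p = 0.805). Cd68, a lysosomal membrane protein of macrophages, was at 804 and 841 CPM in WT and 888 and 841 CPM in KO (log2 fold change 0.072, interval -0.045 to 0.19, edgeR adjusted p = 0.394). In each of these 3 genes the libraries of the 2 groups overlapped. Adgre1, which encodes the F4/80 antigen, was at 430.1 and 433 CPM in WT and 394 and 406 CPM in KO. Its KO libraries were both lower, but at -0.11 on the log2 scale it did not pass (interval -0.22 to 0.0034, edgeR adjusted p = 0.166). The signs of Lyz2 and Csf1r were not stable: Lyz2 became 0.070 with library totals alone, and Csf1r became -0.018 without KO replicate 2.

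The other 4 core genes were called, by at most 1.22-fold. Tyrobp, which encodes the signalling adaptor DAP12, was the 1 core gene that rose, from 629.8 and 634 to 718 and 713 CPM (1.13-fold, edgeR adjusted p = 0.0233). Aif1, a calcium-binding actin regulator, fell from 126 and 134 to 110.2 and 103 CPM (1.22-fold, edgeR adjusted p = 0.00885). Itgam, the CD11b integrin chain, fell from 68.8 and 76.5 to 60.2 and 61.2 CPM (1.20-fold, edgeR adjusted p = 0.0414). Lgals3, which encodes galectin-3 and is also active in T cells, fell from 1828 and 1892 to 1670.2 and 1637 CPM (1.12-fold, edgeR adjusted p = 0.0298). Both KO libraries stood apart from both WT libraries in all 4. Tyrobp and Lgals3 lost their calls whichever library was left out, Itgam without WT replicate 1, WT replicate 2 or KO replicate 1, and Aif1 without WT replicate 2. With library totals alone Itgam and Lgals3 also lost theirs, and Itgam did so with DESeq2. The adjusted p over the alternatives (edgeR, DESeq2 or limma) was 0.00206 to 0.150 for Tyrobp, 0.00724 to 0.250 for Lgals3, 0.0288 to 0.371 for Itgam and 0.000566 to 0.0879 for Aif1. Tyrobp and Itgam are also expressed by neutrophils, whose markers were higher in the KO libraries.

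Among monocyte genes 3 fell and 1 rose. Ms4a4c, which encodes a four-span membrane protein, fell from 98.7 and 101 CPM in WT to 55.3 and 46.1 CPM in KO, 1.97-fold (95% interval 1.72 to 2.26, edgeR adjusted p = 7.94e-06). Plac8, a small cysteine-rich protein gene also active in T cells, fell from 209 and 216 to 153 and 142 CPM, 1.44-fold (edgeR adjusted p = 5.31e-05). Chil3, the chitinase-like protein Ym1 of monocytes and neutrophils, fell from 100.2 and 112 to 84.4 and 72.2 CPM, 1.36-fold (edgeR adjusted p = 0.00341). All 3 were lower in both KO libraries than in either WT library, and all 3 kept their calls under the 13 alternatives.

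Cd14, the co-receptor for bacterial lipopolysaccharide, was the monocyte gene that rose, from 891 and 951 to 1129 and 1091 CPM (1.20-fold, edgeR adjusted p = 0.00350). That call was lost without WT replicate 1 (edgeR adjusted p = 0.0563, the highest over its alternatives, with a lowest of 2.80e-05). Cd14 is made by neutrophils as well. Vcan, a matrix proteoglycan gene of monocytes, was at 113 and 102 CPM in WT and 119.9 and 129 CPM in KO and did not pass (log2 fold change 0.21, edgeR adjusted p = 0.0565). Without KO replicate 1 Vcan passed (edgeR adjusted p = 0.0104), and over its alternatives it ran from 0.0102 to 0.389. Ms4a6c was at 74.5 and 79.9 CPM in WT and 69.1 and 65.0 CPM in KO (log2 fold change -0.20, edgeR adjusted p = 0.0892). Ly6c2, the Ly6C antigen of young monocytes, was at 132 and 110.1 CPM in WT and 115 and 116 CPM in KO, with overlapping groups (edgeR adjusted p = 0.634). F13a1, the coagulation factor XIII A chain, was at 655 and 676 CPM in WT and 601 and 639.6 CPM in KO (log2 fold change -0.10, edgeR adjusted p = 0.217). So Ly6c2 was not called lower with Ms4a4c, Plac8 and Chil3, and which cells its RNA came from was not tested.

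Ms4a7, Ms4a4c and Ms4a6c lie in 1 region of chromosome 19 (mm10), with 68623 bases between Ms4a7 and Ms4a4c and 42119 between Ms4a4c and Ms4a6c, and other genes, Ms4a4b among them, lie in between. Ms4a4c spans 11404770 to 11427246 on the plus strand, Ms4a6c 11469366 to 11482192 on the plus strand and Ms4a7 11321039 to 11336146 on the minus strand. Their log2 fold changes were -0.98 (95% interval -1.17 to -0.78), -0.20 (-0.38 to -0.033) and 0.27 (0.11 to 0.43), and these 3 intervals do not overlap. Paralogs limit the first 2 values. Of the 50-base words in the longest Ms4a4c transcript 8.48% also occur in another listed gene, chiefly Ms4a4b, and for Ms4a6c the share was 9.77%, chiefly with Ms4a6b. Ms4a4b, a T cell gene, stood at 452 and 500.5 CPM in WT and 176 and 166 CPM in KO, and Ms4a6b at 265 and 255 CPM in WT and 175 and 161 CPM in KO. Both paralogs were lower in KO (log2 fold changes -1.48 and -0.63, edgeR adjusted p = 9.21e-09 and 1.25e-05), so reads shared with them could move Ms4a4c and Ms4a6c the same way, and the values of these 2 genes are uncertain. How many reads were shared was not tested. Lyz2 shares 15.4% of its words with Lyz1, which was at 233 and 243 CPM in WT and 198 and 194 CPM in KO, far below Lyz2. Ly6c2 shares 13.1%, chiefly with Ly6c1, which had a mean of 6.22 CPM in WT and 5.98 CPM in KO. In Csf1r, 15.1% of exon bases overlap Hmgxb3 on the opposite strand, a gene with means of 35.5 and 29.0 CPM.

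**Figure D3:**
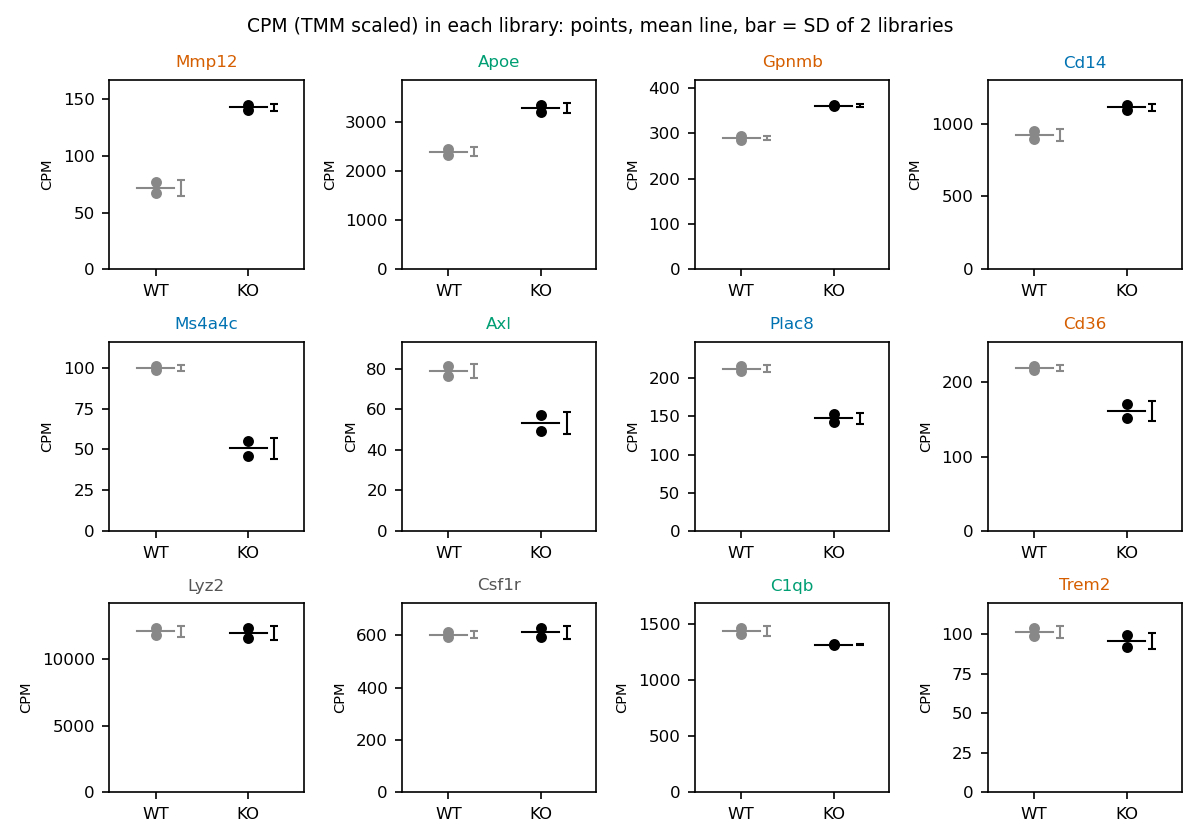
CPM (y axis, from 0) of 12 genes in each library (points), with the mean of the 2 libraries (line) and its SD (bar), for libraries labelled WT and KO (x axis). The KO points of Mmp12, Apoe, Gpnmb and Cd14 lie above both WT points, those of Ms4a4c, Axl, Plac8 and Cd36 below them, and the groups of Lyz2, Csf1r and Trem2 overlap.

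Resident-type genes were divided, with 3 higher, 1 lower and 7 that did not pass. Apoe, which encodes the lipid carrier apolipoprotein E, rose from 2321 and 2453 CPM in WT to 3345 and 3207 CPM in KO, 1.37-fold (95% interval 1.27 to 1.49, edgeR adjusted p = 5.67e-05). Pf4, the chemokine CXCL4 of platelets and of some tissue macrophages, rose from 669.5 and 662 to 753 and 813 CPM (1.18-fold, edgeR adjusted p = 0.00895). Ms4a7 rose from 117 and 134 to 158 and 146 CPM (1.21-fold, edgeR adjusted p = 0.0219). No library of 1 group reached into the other for these 3 genes. Pf4 lost its call without KO replicate 2 (edgeR adjusted p = 0.0738, range over alternatives 0.000635 to 0.0738) and Ms4a7 without WT replicate 1 (edgeR adjusted p = 0.262, range 0.000439 to 0.262). Apoe passed under all 13 alternatives, with log2 fold changes from 0.41 to 0.54.

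Mrc1, Cd163 and Folr2 were higher in both KO libraries and did not pass. Mrc1 (the mannose receptor), Cd163 (the haemoglobin scavenger receptor) and Folr2 (a folate receptor) changed by 0.093, 0.18 and 0.19 on the log2 scale (edgeR adjusted p = 0.257, 0.123 and 0.170). Cd163 was at 67.1 and 65.5 CPM in WT and 74.6 and 75.2 CPM in KO, and Folr2 at 41.0 and 43.5 and at 48.3 and 48.1 CPM. With library totals alone all 3 passed as higher, with adjusted p-values (edgeR) of 0.0300, 0.0240 and 0.0447. Their highest over the alternatives were 0.682, 0.409 and 0.578.

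Of the pair of engulfment receptor genes, Axl passed and Mertk did not. Axl fell from 76.4 and 81.4 CPM in WT to 49.4 and 57.2 CPM in KO, 1.48-fold (95% interval 1.29 to 1.69, edgeR adjusted p = 0.000695), and kept that call under all 13 alternatives. Mertk, from the same kinase family, was at 21.1 and 20.1 CPM in WT and 15.4 and 18.9 CPM in KO. With few reads its interval was wide (log2 fold change -0.26, -0.57 to 0.049, edgeR adjusted p = 0.229).

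The 3 chains of complement C1q, the molecule that starts the classical pathway, had like values and did not pass with all libraries in the edgeR test. C1qa was at 881 and 873 CPM in WT and 808 and 819 CPM in KO. C1qb was at 1409 and 1468 CPM in WT and 1319 and 1312 CPM in KO. C1qc was at 752 and 779.6 CPM in WT and 711 and 655 CPM in KO. Each was lower in both KO libraries, by -0.11, -0.13 and -0.17 on the log2 scale (edgeR adjusted p = 0.153, 0.0925 and 0.0536). The genes lie on chromosome 4 (mm10), C1qb from 136880129 to 136886187, C1qc from 136889804 to 136893065 and C1qa from 136895917 to 136898803, all on the minus strand, 3616 and 2851 bases apart. C1qb passed with limma-voom (adjusted p = 0.0493, highest over its alternatives 0.585). C1qc passed with DESeq2 and limma-voom (adjusted p = 0.0379 and 0.0372), with a filter of 1 CPM in 2 libraries (edgeR adjusted p = 0.0479) and without KO replicate 1 (edgeR adjusted p = 0.0194), with a highest of 0.339 over its alternatives.

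Of 10 tumour macrophage genes 3 were higher, 5 were lower and 2 did not pass. Mmp12, which encodes the elastase of macrophages, rose from 67.0 and 76.7 CPM in WT to 145 and 140.3 CPM in KO, 1.98-fold (95% interval 1.77 to 2.22, edgeR adjusted p = 1.60e-06). The gene spans 7344381 to 7369499 on chromosome 9, plus strand (mm10). Gpnmb, a lysosome-associated glycoprotein of lipid-laden macrophages, rose from 286 and 293 to 362 and 359 CPM (1.25-fold, edgeR adjusted p = 0.00102). Both stood above WT in both KO libraries and passed under all 13 alternatives. Mmp14, a membrane-bound collagenase, rose from 98.8 and 103 to 112 and 125 CPM (1.17-fold, edgeR adjusted p = 0.0400), a call lost without WT replicate 1, WT replicate 2 or KO replicate 2 and with DESeq2 (adjusted p from 0.00195 to 0.236 over the alternatives).

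Cd36, Msr1, Spp1, Arg1 and Fn1 were the 5 members of this list that fell. Cd36, a fatty acid and lipoprotein receptor, fell from 217 and 221 to 171 and 152 CPM (1.36-fold, edgeR adjusted p = 0.000414). Msr1, the class A scavenger receptor, fell from 226 and 231 to 185 and 168 CPM (1.29-fold, edgeR adjusted p = 0.00100). Spp1, the matrix protein osteopontin, was the second most abundant of the 37 per length and stood at 3021 and 3277 CPM in WT and 2527 and 2445 CPM in KO (edgeR adjusted p = 0.000788). These 3 falls held under all 13 alternatives. Arg1 fell from 1023 and 1054 to 898 and 929 CPM (1.14-fold, edgeR adjusted p = 0.0219), and Fn1, the fibronectin gene that fibroblasts also use, from 959 and 865 to 739 and 822 CPM (1.17-fold, edgeR adjusted p = 0.0283). Arg1 lost its call without WT replicate 1, WT replicate 2 or KO replicate 1, and Fn1 without WT replicate 1 or KO replicate 1, and both lost theirs with library totals alone. For Arg1 the adjusted p under the alternatives (edgeR, DESeq2 or limma) was 0.00509 to 0.182, and for Fn1 it was 0.000869 to 0.257. Markers of stroma, which includes fibroblasts, summed to 571 to 618 CPM in WT and 653 to 723 CPM in KO, and their part in the Fn1 value was not tested.

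Trem2, a lipid-sensing receptor that signals through the Tyrobp adaptor, was level, at 98.8 and 104 CPM in WT and 92.0 and 99.4 CPM in KO (log2 fold change -0.084, interval -0.24 to 0.070, edgeR adjusted p = 0.459). Nos2 was at 7.18 and 7.84 CPM in WT and 10.2 and 9.08 CPM in KO and did not pass (log2 fold change 0.36, interval -0.060 to 0.78, edgeR adjusted p = 0.221). The lipid-handling genes of the list thus did not share a direction: Gpnmb and, from the resident-type list, Apoe rose, Cd36 and Msr1 fell, and Trem2 did not pass.

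The lists were set against each other through their mean log2 CPM in each library, a description with no test because the members were chosen with results known. Relative to the core genes the monocyte list stood at -1.77 and -1.81 in WT and -1.91 and -1.98 in KO. The resident-type list stood at -1.32 and -1.33 in WT and -1.25 and -1.22 in KO, and the tumour macrophage list at -1.55 in both WT libraries and -1.45 and -1.46 in KO. The core genes themselves were lower in both KO libraries, at 9.30 and 9.35 in WT and 9.26 in both KO libraries, a difference of -0.070. Without subtracting the core, the monocyte list differed by -0.23 with no overlap, while the resident-type list (0.017) and the tumour macrophage list (0.023) overlapped between groups. So with TMM scaling the higher standing of these last lists against the core is in large part the lower core level. With library totals alone the median log2 fold change of the core genes was 0.023, so the sign of the core change depends on the scaling. Single genes carried much of the differences from the core. Without Ms4a4c the difference of the monocyte list went from -0.16 to -0.051, without Mmp12 that of the tumour macrophage list went from 0.093 to -0.014, and without Apoe that of the resident-type list went from 0.088 to 0.044. Each gene left out had its list's largest change in the direction of that difference, so only the size of these moves is informative. Axl, which fell in the resident-type list, was not left out. Between the resident-type and tumour macrophage lists the groups overlapped, at 0.24 and 0.21 in WT and 0.20 and 0.24 in KO. Median log2 fold changes were -0.062 for the core, -0.15 for the monocyte, 0.093 for the resident-type and -0.13 for the tumour macrophage genes, so for the last list the median and the mean level differ in sign.

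**Figure D4:**
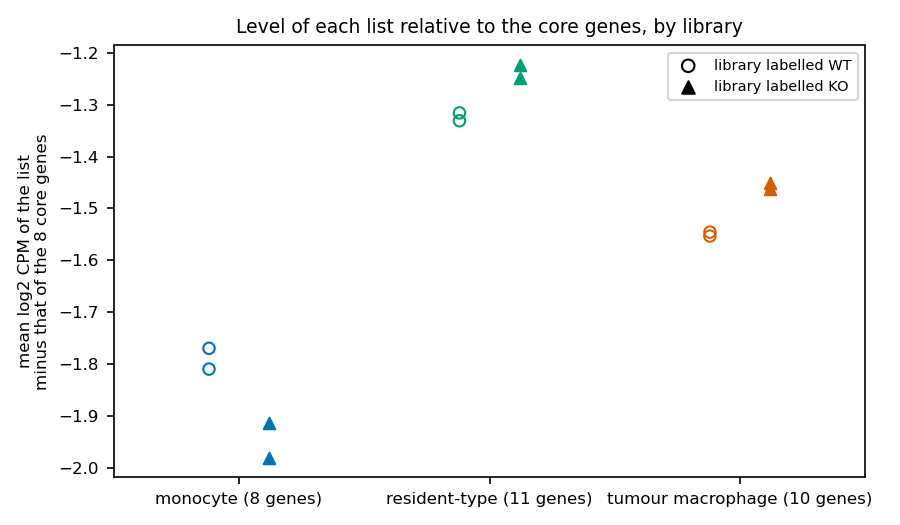
Mean log2 CPM of each list minus that of the 8 core genes (y axis) in every library, for the monocyte, resident-type and tumour macrophage lists (x axis); circles are libraries labelled WT and triangles those labelled KO. KO libraries lie below WT for the monocyte list and above WT for the other 2 lists. With TMM scaling the own levels of those 2 lists overlapped between groups, while the subtracted core level was lower in KO by -0.070. Without Mmp12 the tumour macrophage difference is -0.014.

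Factors that recruit, feed or specify the lineage were given as a separate list of 26 genes, of which 25 were tested. Of these, 2 were higher and 11 lower, with a median log2 fold change of -0.13. That is 52% called, beside 21.2% of all tested genes (11.0% lower) and 46.4% of those at least as abundant as the median member. Csf1, the ligand of the Csf1r receptor, rose from 1676 counts in each WT library to 3520 and 3369 counts in KO, or from 68.9 ± 2.60 to 129 ± 5.33 CPM (SD, n = 2 each; 1.87-fold, edgeR adjusted p = 1.81e-06), while Csf1r itself was level. Cx3cr1, the fractalkine receptor of patrolling monocytes and of effector T cells, fell from 73.4 ± 1.00 to 31.4 ± 2.89 CPM (SD, n = 2 each; edgeR adjusted p = 1.56e-06). Irf8, a factor needed by monocytes and dendritic cells, fell from 615 ± 8.77 to 405 ± 3.99 CPM (SD, n = 2 each; edgeR adjusted p = 3.99e-06). Ccr2, the receptor that brings monocytes out of the marrow, fell from 246 ± 8.87 to 187 ± 3.38 CPM (SD, n = 2 each; 1.31-fold, edgeR adjusted p = 0.000374). Spi1, the PU.1 gene, was chosen after its values were seen: it had 6802 and 7292 counts in WT and 7932 and 7597 in KO (log2 fold change 0.0025, edgeR adjusted p = 0.983). Without WT replicate 1, 6 of the list were lower, and without KO replicate 1, 7 were higher.

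A further 40 macrophage and monocyte genes outside the 37 were also split, with 11 higher and 12 lower and a median log2 fold change of -0.018. Here 57.5% were called, beside the same 21.2% of all tested genes and 46.4% of the abundant ones. Il1b, an inflammatory cytokine of monocytes and neutrophils, rose 1.73-fold (380 ± 9.93 to 659 ± 24.4 CPM; SD, n = 2 each). Clec4e, the receptor Mincle, rose 1.70-fold (219 ± 9.57 to 373 ± 9.38 CPM; SD, n = 2 each), and Cd300lf, an inhibitory myeloid receptor, 1.86-fold (72.8 ± 3.87 to 135 ± 1.31 CPM; SD, n = 2 each). Cxcl9, an interferon gamma target, fell 3.28-fold (59.8 ± 7.20 to 18.2 ± 3.40 CPM; SD, n = 2 each). Il1b had the lowest adjusted p of the 4, 5.66e-07, and Cxcl9 the highest, 1.90e-06 (edgeR quasi-likelihood). Without WT replicate 2, 7 of the list were higher.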

How the data were processed

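RNA of sorted cells was read as 2 libraries per group, each with 1 deposited table of counts and FPKM for 14082 genes. The build mm10 and the tools Trim Galore 0.4.4, featureCounts, Bowtie2, DESeq2 and edgeR come from the submitters' processing notes, which give no order; neither the annotation nor the strand setting is given in the sources used here. Per the file headers the deposited counts are per gene, as whole numbers, and all tests used them. FPKM values, deposited by the authors beside the counts, entered no test. They served to order genes, to give ratios between genes within a library, and to give medians over the 4 libraries.

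The test was edgeR 4.0.16 (R 4.3.3): TMM factors, filterByExpr (minimum count 10, minimum total 15), glmQLFit with robust set, glmQLFTest and Benjamini-Hochberg adjustment over 13358 genes. Levels are TMM-scaled CPM, with a pseudocount of 0.5 for log2 levels. Replicates differed beyond counting noise (chi-square per degree of freedom 7.50 in WT and 9.83 in KO), so none were merged. Simulated data modelled on this comparison (13154 genes run) were used to test the edgeR step, which recovered 13 of 33 genes changed 1.25-fold and 29 of 30 changed 1.5-fold at the members' levels, and 6.87% of its calls were false.

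The members and lists were chosen with earlier results of these data known. Per-library values are given for Lyz2, Csf1r, Adgre1 and, in each list, the 6 members of lowest adjusted p with at least 1 CPM, and for others where they show another level or direction; 4 genes were named from each further list. Positions and shared 50-base words are from GENCODE M21 (GRCm38), and promoters from RefSeq. Alternatives were other scalings (RLE, library totals, upper quartile), other filters, DESeq2 1.42.0, limma-voom (limma 3.58.1), the replicate number as a block, and leaving out each library.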

Additional observations from a re-analysis of the deposited data

How the results depend on the processing

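Of 20 calls among the 37 genes, 10 held under all 13 alternatives: Mmp12, Apoe, Gpnmb, Ms4a4c, Plac8, Chil3, Axl, Cd36, Msr1 and Spp1. Library totals alone as the scaling gave 2105 higher genes in all, 13 higher members, and median log2 fold changes of -0.016 for the members, 0.023 for the core, -0.068 for the monocyte, 0.18 for the resident-type and -0.049 for the tumour macrophage genes. It also turned Lyz2 to 0.070, Ly6c2 to 0.019 and Trem2 to 0.0014, none past the threshold. Leaving out 1 library, where the spread comes from the other group's 2 libraries, gave 714 to 1605 higher and 831 to 1787 lower genes in all, 4 to 8 higher members and a core median from -0.098 to -0.029. Over these the log2 fold change of Lyz2 ran from -0.064 to 0.032 (0.022 without WT replicate 2, 0.032 without KO replicate 1), that of Csf1r from -0.018 (without KO replicate 2) to 0.064, and that of Ly6c2 from -0.19 to 0.070 (without WT replicate 1). Scaling to the geometric mean of Lyz2, Cd68, Csf1r and Adgre1, added after seeing the data, gave 8 higher and 12 lower members. The cause of these moves was not tested. The replicate numbers did not pair the libraries (correlation of the replicate differences -0.031), and with the number as a block 7 members were higher and 10 lower, as Tyrobp, Lgals3 and Arg1 lost their calls (edgeR adjusted p = 0.108, 0.131 and 0.0940). Depth limits Mertk and Nos2 most. In the simulated counts, changes of 1.25-fold were often missed among genes at or above the scarcest member's level. That range reaches far below the median member, so it does not give the detection rate for a typical member.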
